A study of Homo sapiens with 6 samples.

Results

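Nucleic acid sensing genes were compared between parental SH-SY5Y cells and SY5Y-TR1 cells, a resistant line derived from them. The 9 genes are IFI16, AIM2 and CGAS, which encode DNA sensors, STING1, the adaptor of the DNA pathway, TLR3 and MAVS, the receptor and the adaptor of RNA pathways, TBK1 and IRF3, the kinase and the transcription factor that both pathways use, and TREX1, a DNA exonuclease. They were named by function, with earlier results of these arrays known, and the probe set that stands for each gene was chosen by its mean signal over all 6 arrays. A probe set is a group of short probes on the array that reads one transcript, and only those annotated with a single gene symbol were used. By that rule 8 of the 9 genes were measured, with 18 probe sets among them, out of 19775 genes on the array. TREX1 could not be given a value because its 3 probe sets are annotated to ATRIP as well.

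SH-SY5Y is a human neuroblastoma (NB) line that carries the ALK F1174L mutation, and both groups share it. SY5Y-TR1 is 1 clone of SH-SY5Y, selected for growth in TAE684, a small molecule inhibitor of ALK. Per the labels it was kept in medium with 1 μM TAE684, whereas SH-SY5Y cells were kept without it, so resistance, clonal origin and the presence of the compound cannot be told apart. Each line was measured on 3 arrays. The sample titles and the paper's methods call them biological replicates. The design text of the series instead counts each line as 1 sample and its 3 arrays as replicates of it, and the cultures are not described. Each SD, n = 3 and p-value therefore measures the spread between arrays, which may be technical. By the limits given further on, 15 of 17 measured markers of noradrenergic neuroblasts were above background in SH-SY5Y and 8 in SY5Y-TR1. Of the 17, 13 were called lower in SY5Y-TR1, where 5.99% of all genes were called lower. The part of this fall in the results was not tested.

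Cells recognise foreign or misplaced nucleic acid with receptors that sit in the nucleus, the cytosol or the endosome. DNA in the cytosol is bound by cGAS, which makes the messenger cGAMP, and cGAMP activates STING on the endoplasmic reticulum. Double-stranded RNA is read by TLR3 in endosomes and by helicases that signal through MAVS on mitochondria. All of these routes lead to TBK1, which phosphorylates IRF3, and IRF3 then switches on the interferon beta gene. IFI16 and AIM2 belong to the PYHIN family, whose members bind DNA through a HIN domain, and AIM2 assembles an inflammasome rather than acting through STING.

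The values are log2 signals after robust multi-array averaging (RMA), so a difference of 1 is a 2-fold change. A gene was called higher or lower if it differed by 2-fold or more and its Benjamini-Hochberg adjusted p, from a limma fit across all 19775 genes, was under 0.05. Signals up to 5.96, a level taken from genes that belong to other tissues, were treated as background. If all arrays of one line fell there, the fold is a lower bound, at least the mean of the other line over that level, and if both lines fell there no fold is given. Signals of different probe sets depend on their probes, so levels are compared between lines and not between genes. In bulk RNA, more cells that express a gene and more RNA per cell cannot be told apart.

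IFI16 was under background in the parental line and bright in the resistant one, STING1 and TLR3 moved with it, and the remaining measured members stayed within 2-fold. Thus 3 of 8 measured genes were called higher and none lower (0 lower also at an unadjusted p under 0.05, and 0 by the methods' t-test). Over the whole array 5.36% of genes were called higher and 5.99% lower, and since the members were picked with results in view, nothing is read from that contrast. At an adjusted p under 0.05 with no fold limit, 6 of the 8 were higher, against 28.5% of all genes higher and 24.3% lower.

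**Figure D1:**
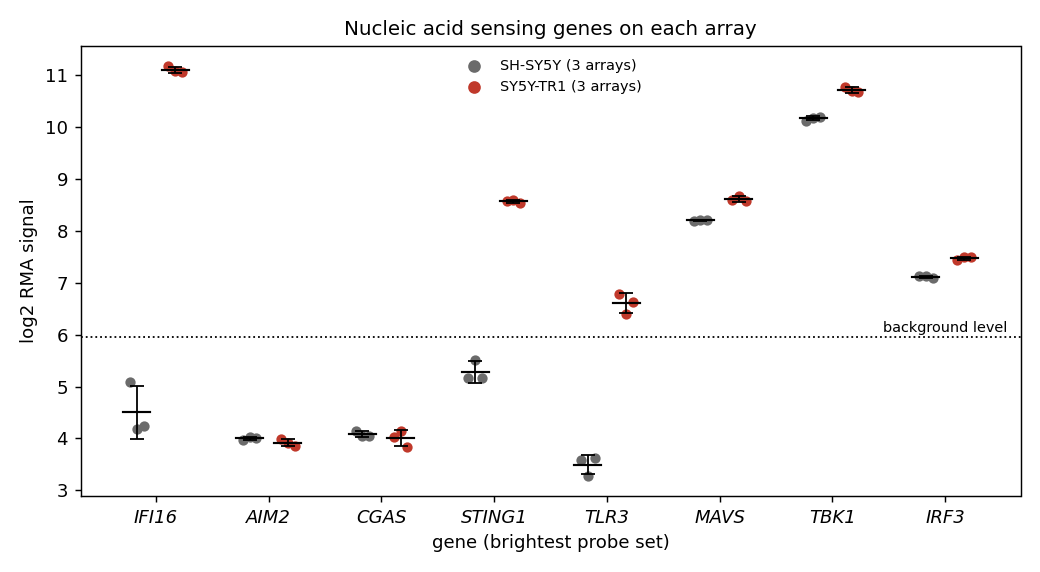
Log2 RMA signal (y axis) of the brightest probe set of each measured member (x axis) on the 3 SH-SY5Y arrays (grey) and the 3 SY5Y-TR1 arrays (red); bars show means with SDs, and a dotted line marks the background level of 5.96. IFI16, STING1 and TLR3 lie under the line on every SH-SY5Y array and above it on every SY5Y-TR1 array, whereas AIM2 and CGAS lie under it on all 6.

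Among the DNA sensors, IFI16 read 5.09, 4.17 and 4.24 on the SH-SY5Y arrays and 11.17, 11.08 and 11.06 on the SY5Y-TR1 arrays. The lines were separated by 5.98 log2 units at their nearest arrays. The mean rose from 4.50 ± 0.51 to 11.10 ± 0.06 (SD, n = 3), at least 35.4-fold, with a log2 difference of 6.60 and a standard error of 0.23 (limma adjusted p = 5.73e-07). SH-SY5Y replicate 1 stood above its fellow arrays, but still under the background level. Both other IFI16 probe sets were called higher as well. They read 4.49 and 4.51 on average in SH-SY5Y and 10.78 in SY5Y-TR1, with log2 fold changes of 6.29 and 6.28. All 3 probe sets carry marks for sequence shared with other transcripts (_s_at or _x_at), so no unmarked probe set of IFI16 could be read.

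AIM2, the neighbour of IFI16 on chromosome 1 and its relative in the PYHIN family, read 3.97, 4.02 and 4.01 in SH-SY5Y and 3.99, 3.91 and 3.86 in SY5Y-TR1. All 6 arrays lay under the background level and the lines overlapped, so a change was not detectable at this signal (log2 difference -0.08, standard error 0.05). CGAS, which encodes the enzyme that makes cGAMP, read 4.15, 4.06 and 4.05 in SH-SY5Y and 4.02, 4.14 and 3.84 in SY5Y-TR1. Its lines overlapped too, and the other probe sets of CGAS gave log2 differences of 0.30 and -0.07, also under background on every array. The sign of the CGAS difference depended on the probe set, from -0.08 with the brightest to 0.05 with the mean of all 3. Neither gene showed a signal above background in either line.

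The sequences upstream of IFI16, AIM2 and TLR3 are shown because IFI16 and AIM2 are neighbours that differed, and TLR3, described further on, rose with IFI16. RefSeq promoter entries were found for 6 of the 9 genes, which leaves STING1, CGAS and IRF3 without one. Each run is the 250 bases before the annotated start, 5′ to 3′ on the strand of the gene (build GRCh38.p14). Capitals mark matches to 3 motifs searched on both strands, chosen after the values were seen, and none of the matches overlapped. The motifs were an interferon response element core (GAAA, 2 bases of any kind, GAAA), an interferon gamma activated site (TTCNNNGAA) and an AP-1 site (TGANTCA), which 3.07%, 6.78% and 6.60% of 27305 promoter windows of this length contain.
IFI16, chr1:159008741-159008990, plus strand: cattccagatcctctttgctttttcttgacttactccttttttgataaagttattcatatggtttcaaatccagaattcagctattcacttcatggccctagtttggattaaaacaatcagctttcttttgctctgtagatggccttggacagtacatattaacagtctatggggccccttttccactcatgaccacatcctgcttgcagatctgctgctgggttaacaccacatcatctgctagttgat
AIM2, chr1:159076767-159077016, minus strand: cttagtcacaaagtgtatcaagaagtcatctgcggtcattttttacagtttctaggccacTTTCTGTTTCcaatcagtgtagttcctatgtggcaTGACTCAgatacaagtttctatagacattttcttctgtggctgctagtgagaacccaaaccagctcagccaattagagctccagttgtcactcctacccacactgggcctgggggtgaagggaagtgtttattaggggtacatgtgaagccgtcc
TLR3, chr4:186068906-186069155, plus strand: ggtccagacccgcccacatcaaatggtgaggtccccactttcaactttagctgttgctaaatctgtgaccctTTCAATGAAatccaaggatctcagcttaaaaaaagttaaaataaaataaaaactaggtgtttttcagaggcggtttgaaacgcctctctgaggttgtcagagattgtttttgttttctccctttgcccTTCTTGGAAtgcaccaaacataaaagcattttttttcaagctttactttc

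The IFI16 window held none of these letters and no CpG dinucleotide, and 6.39% of windows have none. The AIM2 window held 1 interferon response element core and 1 AP-1 match and 2 CpG. The TLR3 window held 2 matches to the interferon gamma activated site, the nearer one ending 42 bases before the start, and 3 CpG. TBK1 and MAVS, which were expressed in both lines, had 27 and 28 CpG in their windows and no match, and the TREX1 window had 3 CpG and no match. The median over all windows was 11 CpG. These are descriptions of letters in a window and not of binding.

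STING1, which relays cGAMP to TBK1, read 5.16, 5.52 and 5.17 in SH-SY5Y and 8.57, 8.60 and 8.54 in SY5Y-TR1. Every SY5Y-TR1 array lay at least 3.02 log2 units above every SH-SY5Y array. The mean rose from 5.28 ± 0.21 to 8.57 ± 0.03 (SD, n = 3), at least 6.12-fold (log2 difference 3.29 with a standard error of 0.10, limma adjusted p = 3.06e-07). The other STING1 probe set rose from 4.63 ± 0.06 to 8.70 ± 0.04 (SD, n = 3), at least 6.67-fold. Both read under background on every SH-SY5Y array, so the 2 bounds do not rank them. Neither carries a mark for shared sequence.

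TLR3, the endosomal receptor for double-stranded RNA, read 3.58, 3.28 and 3.62 in SH-SY5Y and 6.79, 6.41 and 6.64 in SY5Y-TR1. The lines lay 2.78 log2 units apart, with SY5Y-TR1 only a little above the background level. The mean rose from 3.50 ± 0.19 to 6.61 ± 0.19 (SD, n = 3), at least 1.57-fold against background (log2 difference 3.12 with a standard error of 0.13, limma adjusted p = 1.13e-06). Of the other probe sets, one rose from 3.48 to 6.24 and was called higher, and the other read 3.42 and 3.97 with every array under background. When dim values were set to the background level, the TLR3 log2 difference was 0.65 and the call was lost, so how far TLR3 rose is not fixed by these arrays.

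MAVS, the adaptor of the RNA helicases, was above background in both lines. Its brightest probe set read 8.19, 8.21 and 8.21 in SH-SY5Y and 8.60, 8.67 and 8.57 in SY5Y-TR1, a 1.33-fold difference (log2 0.41, 95% interval 0.30 to 0.51). Its lines did not overlap, and the interval lay under the 2-fold limit. Over its 4 probe sets the log2 difference ran from 0.13 to 0.76, all toward SY5Y-TR1, and none was called.

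TBK1, the kinase on which the DNA and RNA routes converge, read 10.12, 10.18 and 10.20 in SH-SY5Y and 10.78, 10.69 and 10.68 in SY5Y-TR1. The difference was 1.46-fold (log2 0.55, 95% interval 0.44 to 0.66, limma adjusted p = 5.55e-05). IRF3, the factor that TBK1 phosphorylates, read 7.12, 7.12 and 7.09 in SH-SY5Y and 7.43, 7.49 and 7.49 in SY5Y-TR1, a 1.28-fold difference (log2 0.36, 95% interval 0.26 to 0.46). For both genes every SY5Y-TR1 array was higher, and the intervals excluded a 2-fold change. Centring the arrays on 21 housekeeping genes, which lowered every log2 difference between the lines by 0.10, gave 0.45 for TBK1, 0.26 for IRF3 and 0.31 for MAVS. The kinase, the factor and the mitochondrial adaptor were thus present in both lines, whereas IFI16, STING1 and TLR3 were above background in SY5Y-TR1 alone.

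**Figure D2:**
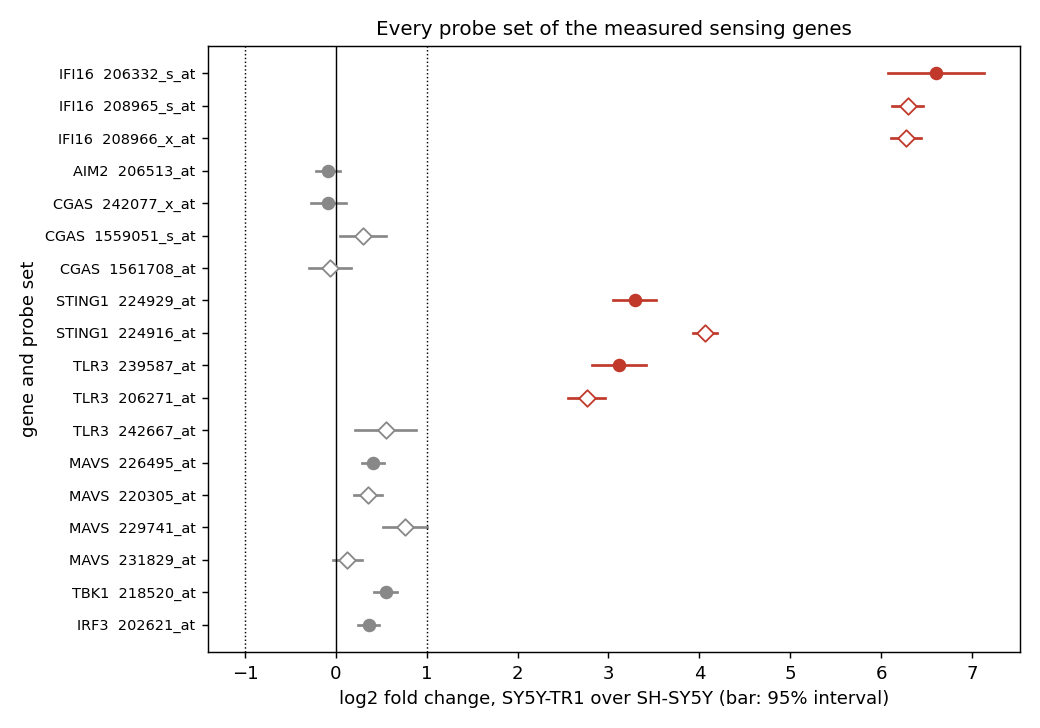
Log2 fold change of SY5Y-TR1 over SH-SY5Y (x axis) for each of the 18 probe sets of the measured members (y axis), where bars give limma's 95% interval over 3 arrays per line; filled circles mark the probe set that stands for its gene, open diamonds the rest, red marks those called higher, and dotted lines mark 2-fold. All 3 IFI16 probe sets lie between 6.28 and 6.60, both STING1 probe sets and 2 of 3 TLR3 probe sets lie beyond 2-fold, and those of AIM2 and CGAS lie near 0.

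At the level of probe sets, 7 of the 18 were called higher and none lower, where 3.79% of all 54613 probe sets were called higher and 4.58% lower. The genes nearest to IFI16 in pattern were INHBA, which encodes a subunit of activin, HSPB3, a small heat-shock protein, FST, which encodes the activin-binding protein follistatin, EDIL3, a secreted integrin ligand, and SLC25A43, a mitochondrial carrier. Likeness was the root mean square difference of log2 signals over the 6 arrays after the SH-SY5Y mean was subtracted, and it ran from 0.29 for INHBA to 0.39 for SLC25A43. INHBA was 92.0-fold higher from an SH-SY5Y mean of 6.76, above background, and FST 89.7-fold from 6.01, with 2 of 3 SH-SY5Y arrays above background. HSPB3, EDIL3 and SLC25A43 were under background in SH-SY5Y like IFI16, and rose at least 23.7-fold, 62.7-fold and 14.8-fold. With only 2 lines, this measure finds genes that rose by about the same amount, and for IFI16 that amount includes signal under background.

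The other genes of these pathways were taken from 8 lists by role, without the members. Of 170 measured genes, 19 were called higher and 10 lower, and 141 were not called. Thus 17.1% were called, where 5.36% of all genes were called higher and 5.99% lower. By list the share called ran from 9.09% for the DNA sensors and partners to 28% for the interferons and induced genes. The lists were chosen with earlier results known, so nothing is read from that contrast. The median log2 fold change was 0.08, against 0.04 over all genes. Averaging the probe sets of a gene ended the calls of ZCCHC3 (log2 -0.28), TRAF5 (-0.65), RNASEH2B (-0.71) and RNASET2 (0.52), and an unmarked probe set ended that of NAIP (-0.90).

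**Figure D3:**
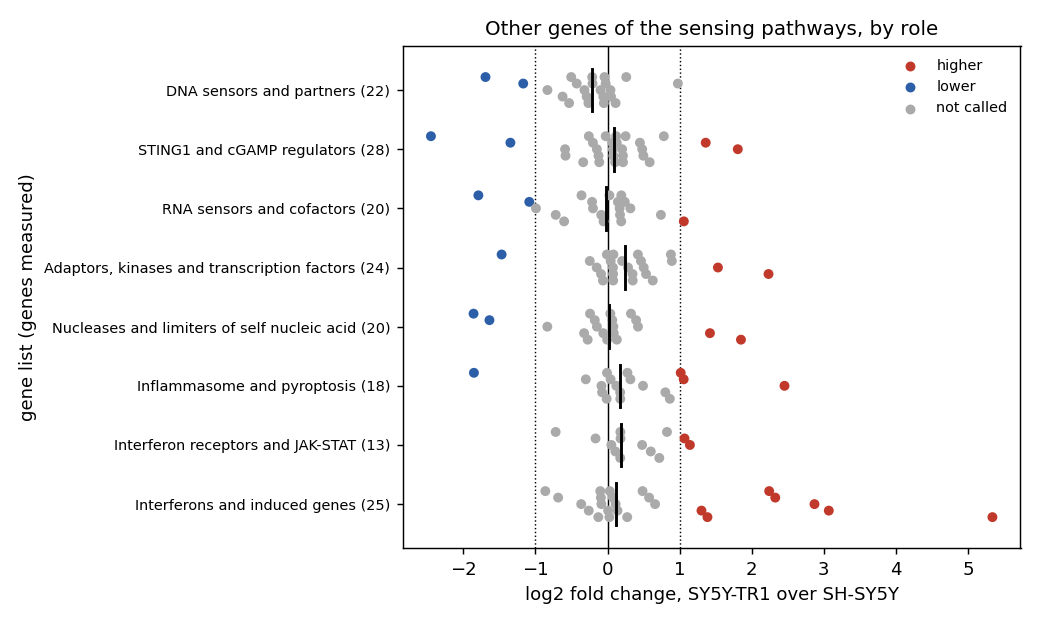
Log2 fold change of SY5Y-TR1 over SH-SY5Y (x axis) for each measured gene of 8 lists (y axis, number of genes in brackets); red points were called higher, blue lower and grey not called, black bars are medians and dotted lines mark 2-fold. The medians lie between -0.21 for the DNA sensors and partners and 0.24 for the adaptors, kinases and transcription factors, and the point farthest to the right is IFI44L at 5.34.

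Of 22 other DNA sensors and their partners, none was called higher (limma; 2 were higher at an unadjusted p under 0.05, and 0 were called by the methods' t-test) and 2 were called lower. The chromatin protein gene HMGB2 fell by 1.69 on the log2 scale, from 13.60 to 11.91, and MRE11, a nuclease of DNA break repair, fell by 1.17. The unmarked probe set of HMGB2 gave -0.56 and was not called, and MRE11 was not called with the mean of its probe sets (-0.92). The other PYHIN genes MNDA and PYHIN1 were under background in both lines, at means of 2.78 and 2.76 for MNDA in SH-SY5Y and SY5Y-TR1, with 3.95 for PYHIN1 in SH-SY5Y. IFI16 was therefore the only one of the 4 PYHIN genes measured that was seen above background in these cells.

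Around STING1, 2 of 28 genes were higher and 2 lower. TRIM56, a ubiquitin ligase of the STING pathway, was 3.50-fold higher (log2 1.81, standard error 0.21) from an SH-SY5Y mean of 6.03 that lay near background. RHBDF2, which encodes iRhom2, a protein that helps STING leave the endoplasmic reticulum, was 2.57-fold higher (log2 1.36, standard error 0.12). INSIG1, a sterol sensor partner that also acts in STING ubiquitination, was 2.54-fold lower, and all 3 of its probe sets were called. ZDHHC15, which encodes a palmitoyltransferase, was called lower (log2 -2.45), but its SH-SY5Y mean of 5.91 was itself under the background level and no fold is given. ENPP1, which breaks down cGAMP outside the cell, was under background in both lines.

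Of the RNA sensors and cofactors, 1 of 20 was higher and 2 lower. IFIH1, the helicase MDA5, had a mean of 4.59 in SH-SY5Y and 5.65 in SY5Y-TR1, all under background, and its call was lost without SH-SY5Y replicate 2 (log2 0.96) or SY5Y-TR1 replicate 3 (0.96), with housekeeping centring (0.96) and with its probe sets averaged (0.59). RIGI, the helicase RIG-I, was above background in both lines with a log2 difference of 0.24 by its brightest probe set, which carries a mark for shared sequence. It was not called with 2 of its 3 probe sets, and the other was called, so its difference depends on the probe set. TLR7 and TLR8 were under background in both lines. OAS1, which makes the 2-5A messenger, was called lower (log2 -1.79), with 1 of 3 SH-SY5Y arrays above background, and ZCCHC3, a cofactor of the RNA helicases, was 2.12-fold lower, called in 1 of 3 probe sets. When dim values were set to the background level, OAS1 (log2 -0.09) and IFIH1 lost their calls, and 1 gene of this list was still called.

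Among 24 adaptors, kinases and transcription factors, 2 were higher and 1 lower. IKBKE, the closest relative of TBK1, was 4.70-fold higher (log2 2.23, standard error 0.10), and both of its probe sets were called. Its SH-SY5Y mean of 6.03 lay near background, with 2 of 3 SH-SY5Y arrays above it, so the fold is not exact. OPTN, an autophagy receptor that TBK1 phosphorylates, was 2.89-fold higher, from 8.76 to 10.29. TRAF5, a signalling adaptor, was 2.77-fold lower through 1 of 2 probe sets. The kinase relative and the kinase substrate therefore passed the limit that TBK1 itself did not reach, and the differences between these genes were not tested.

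Of 20 nucleases and other limiters of self nucleic acid, 2 were higher and 2 lower. DNASE1L1 was 3.60-fold and the lysosomal RNase gene RNASET2 2.68-fold higher, the latter in 2 of 6 probe sets. RNASEH2A and RNASEH2B, which encode subunits of the enzyme that removes ribonucleotides from DNA, were 3.11-fold and 3.63-fold lower, RNASEH2B through 1 of 4 probe sets.

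In the inflammasome and pyroptosis list 3 of 18 genes were higher and 1 lower, and 11 were under background in both lines. PYCARD, which encodes the ASC adaptor that AIM2 binds, and CASP1, the protease it recruits, were among the 11, at means of 4.77 and 5.64 in SY5Y-TR1. These levels are those of the brightest probe set of each gene. Of the 5 CASP1 probe sets 4 were not called, and the other was called, so the CASP1 difference depends on the probe set. CASP4, a sensor of bacterial lipid, was at least 4.75-fold higher through 1 of 2 probe sets, and the unmarked one gave 0.19. GSDME, a pore-forming gasdermin, and the mitotic and inflammasome kinase gene NEK7 were 2.08-fold and 2.02-fold higher, close to the limit. Both fell under it with housekeeping centring (log2 0.95 and 0.91), and NEK7 also without SH-SY5Y replicate 1 (0.999). NAIP, a sensor of bacterial flagellin, was lower by at least 2.43-fold, and 2 of its 3 probe sets were called.

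Downstream, 2 of 13 interferon receptor and JAK-STAT genes were higher, IL10RB at 2.21-fold and IFNAR1 at 2.10-fold through 2 of its 4 probe sets. None was called lower in the limma fit, where 2 were lower at an unadjusted p under 0.05, or by the methods' t-test. IFNAR1 was not called with housekeeping centring (log2 0.97), nor when its 4 probe sets were averaged (0.58). IRF9, the DNA-binding subunit of the interferon-activated complex, had a log2 difference of 0.72. Of 25 interferons and induced genes, 7 were called higher and 14 were under background in both lines. None was called lower in the limma fit, where 3 were lower at an unadjusted p under 0.05, or by the methods' t-test. The 14 include IFNB1, the direct target of IRF3, at 3.73 in SH-SY5Y and 3.76 in SY5Y-TR1, and the chemokine genes CXCL10 and CCL5. IFI44L was at least 7.64-fold higher, IFIT3 at least 5.36-fold through 1 of 2 probe sets, and IFITM3, which blocks viral entry, was 7.31-fold higher from a level already well above background. The only probe set used for IFITM3 carries a mark for shared sequence, as does that of IFITM2, which was 5.01-fold higher. The signal may therefore not be that of IFITM3 alone. ISG15 had a log2 difference of 0.58 and MX1 was under background in both lines.

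**Figure D4:**
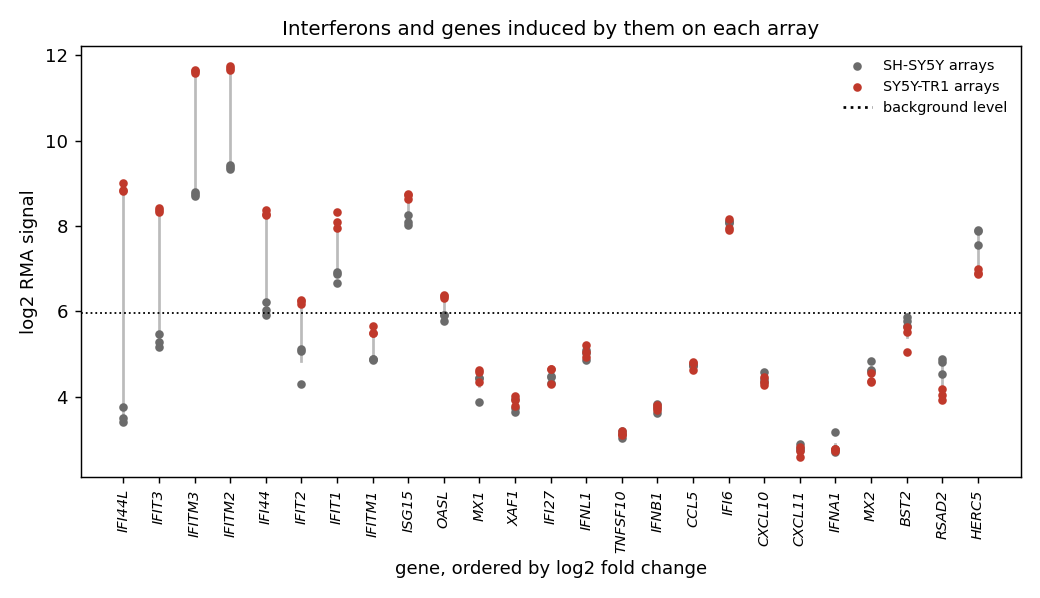
Log2 RMA signal (y axis) of 25 interferons and interferon-induced genes (x axis, ordered by log2 fold change) on the 3 SH-SY5Y arrays (grey) and the 3 SY5Y-TR1 arrays (red); grey lines join the means and the dotted line is the background level of 5.96. IFI44L, IFIT3 and IFITM3 stand at the left with SY5Y-TR1 above SH-SY5Y, whereas IFNB1, IFNL1, IFNA1, CXCL10 and CCL5 lie under the line in both lines.

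Genes of other cell types that express these sensors were read beside them. Of 13 blood cell markers none was called in the limma fit or by the methods' t-test (3 were higher at an unadjusted p under 0.05). In both lines 9 were under background, with PTPRC, the common leukocyte antigen, at 3.71 and 3.64 and CD14, LYZ and SPI1 also under it. CD79A, CSF1R and HBB were above background on all 6 arrays, and AIF1 on 1 array of each line. CSF1R read 6.06 in SH-SY5Y and 6.48 in SY5Y-TR1 without overlap, a difference under the 2-fold limit. The mean log2 signal of the list ran from 4.91 to 4.997 over the SH-SY5Y arrays and from 5.04 to 5.06 over the SY5Y-TR1 arrays. Of 9 endothelial markers none was called by either test, with 3 higher and 1 lower at an unadjusted p under 0.05, and of 5 Schwann cell markers none was called or reached that p. Of 8 fibroblast markers 4 were called higher and 3 lower, where 5.36% of all genes were called higher and 5.99% lower. COL1A1 was 13.2-fold higher, called in 3 of 5 probe sets, and FAP, THY1 and PDGFRB were also higher. PDGFRA was 4.44-fold, LUM 4.04-fold and DCN at least 6.39-fold lower, called in 1 of 4, 1 of 2 and 4 of 7 probe sets. All 8 were above background in SH-SY5Y. The part of the fibroblast genes in the results was not tested.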

How the data were processed

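RNA from both lines was read on Affymetrix U133 Plus 2.0 arrays, 3 per line. The deposited values are log2 signals from RMA, made in Affymetrix Expression Console per the submitters' processing notes. The sources used here give no version. RMA corrects background, equalises array distributions and summarises probes. Scanner signals were not used here. Array medians ran from 5.56 to 5.59, and Pearson's r was 0.997 to 0.998 within and 0.959 to 0.960 between lines. The number of arrays limits the precision.

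The 62 control probe sets were left out. Gene names came from the array annotation, and a RefSeq table (GRCh38.p14) matched by gene ID changed 0 of them. Each of 19775 genes was read by its brightest probe set with 1 symbol. Lines were compared across all genes with limma 3.58.1 (lmFit, eBayes, two-sided) in R 4.3.3, with Benjamini-Hochberg adjustment and no replicate block, since the paper names GenePattern and a t-test without array settings. The 2-fold limit is that of the paper's heatmap legend. The fit was tested on simulated data with known answers. The background level is the 90th percentile of the means of 34 measured genes of unrelated tissues, 4 of which lie above it. Members and lists were chosen with earlier results of these data known. In each list the text names the 3 largest called increases and decreases without overlap of the lines (the 2 brightest where fewer than 2 were called), and a few further genes chosen for their role after their values were seen. Lists held 178 genes, of which 170 were measured. Alternatives were other probe set choices, scalings, floors and filters, thresholds, variance models, the methods' t-test, the replicate block and each array left out.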

Additional observations from a re-analysis of the deposited data

How the results depend on the processing

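IFI16 and STING1 were called higher under the alternatives that could be run for them. IFI16 has no unmarked probe set, and both pass the filter on dim genes only through SY5Y-TR1, so these say nothing on stability. TLR3 lost its call under the 2 that raised dim values to a floor and was not tested where dim genes were left out. A stricter floor, the 95th percentile of the background genes (6.48), was added after the data were seen. It left TLR3 above background on 2 of 3 SY5Y-TR1 arrays, with a log2 fold change of 0.16, and gave at least 24.7-fold for IFI16 and at least 4.27-fold for STING1. Without each array in turn, the log2 fold change ran from 6.44 to 6.89 for IFI16, 3.23 to 3.41 for STING1 and 3.01 to 3.22 for TLR3.

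With adjusted p alone, 6 members, 105 pathway genes and 10447 genes were called, and with a fold of at least 1.5 the last 2 counts were 51 and 4333. The CGAS difference turned to 0.0501 with the mean of its probe sets. Same-numbered arrays of the lines did not deviate together (r from -0.03 to 0.01). No shared effect of the numbers was thus seen, but whether same-numbered cultures were handled together is not described. With the replicate block 3 members, 29 pathway genes and 2245 genes were called, as without it. Of 672 values of 38 named genes under the alternatives, 642 kept their direction and side of the threshold. Some of these values could not have moved. The looser limits cannot end a call, and another choice of probe set leaves the difference of a gene with 1 probe set as it is. The count is therefore not a measure of stability. Array signal limits what can be said of AIM2, CGAS and the other genes under background.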

Other observations

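The genes that lie beside the members on the chromosome were read after the values above were seen. Among the 5 protein-coding genes on either side of IFI16, 7 were measured, none was called in the limma fit or by the methods' t-test (0 at an unadjusted p under 0.05) and 6 were under background on all arrays. Beside STING1, 2 of 6 measured neighbours were higher, the endothelial surface gene ECSCR at least 7.46-fold and DNAJC18 at 2.10-fold. Beside TLR3, 2 of 10 were higher, among them SORBS2, which encodes an actin-associated adaptor. It read 5.93 in SH-SY5Y, where 1 of 3 arrays was above background, and 8.64 in SY5Y-TR1. Beside CGAS, which was under background, the lysosomal transporter SLC17A5 was 3.52-fold higher. CD109 was 29.2-fold higher from an SH-SY5Y mean of 6.03 that lay near background, with 2 of 3 SH-SY5Y arrays above it. Over the whole array 5.36% of genes were called higher, and nothing is read from these few neighbours. The order of genes is that of RefSeq on GRCh38.p14.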
